A study of Rattus norvegicus with 8 samples.

Results

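The genes described here encode the subunits of oxidative phosphorylation: respiratory complexes I to IV, cytochrome c1 of complex III, and the ATP synthase, complex V. They were taken by symbol, as every probe set with a single symbol beginning with Ndufa, Ndufb, Ndufc, Ndufs, Ndufv, Sdha to Sdhd, Uqcr, Cox4i, Cox5 to Cox8 or Atp5, plus Cyc1, with assembly factors left out. This gave 90 probe sets for 81 genes, of 14217 genes named by a single symbol on the array, and 85 of the probe sets, for 78 genes, were bright enough to be tested. The 3 genes that were not tested, Cox4i2, Cox7b2 and Cox8b, all encode complex IV isoforms with restricted tissue expression. A further 9 probe sets carried several symbols of which at least 1 matched, and they were not used, so that cytochrome c itself (Cycs), Cox7a2 and some other subunits are not analysed here.

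The respiratory chain passes electrons from NADH and succinate through complexes I, II and III and cytochrome c to oxygen at complex IV, and pumps protons across the inner mitochondrial membrane. The ATP synthase lets the protons return and makes ATP, on which neurons depend for ion pumping and transmission. Most subunits are encoded in the nucleus, as are all of the genes here, and several complex IV subunits exist as a common form and a form typical of heart, muscle, lung or testis.

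Motoneurons, the cholinergic cells that drive muscle, were collected from the lumbar cord of Wistar albino rats at postnatal day 1 (P1), during the myelination of their axons, and at day 21 (P21), when myelination is complete. The labels give no genetic alteration and no drug treatment. Each age had 4 biological replicates on 1 Affymetrix RAE230 2.0 array each. Every array held a pool of RNA from 4 rats, from 1500 to 2000 cells cut by laser from 12 µm sections stained with cresyl violet, amplified in 2 rounds from the poly(A) tail, which favours transcript 3′ ends. The 4 litters used each gave animals to both ages. The comparison asked which transcripts differ between these ages. Changes below are log2 ratios of P21 to P1 with a standard error after ±, intensities are linear with an SD after ±, and n = 4 arrays per age. A gene was called when limma's adjusted p, over all 19155 tested probe sets, was under 0.05.

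Array medians lay between 323 and 416, and the correlation of arrays was 0.958 to 0.986 for the same age, against 0.821 to 0.868 for different ages. Motoneuron markers had a summed intensity of 26773 to 29718 on the P1 arrays and 28300 to 33356 on the P21 arrays, with 1 of 6 called higher and 1 lower. The sum is carried mostly by Nefh (9181 ± 215 and 9201 ± 269) and Prph (7947 ± 511 and 8321 ± 456), and hides the called genes. By limma, Chat rose by 1.32 ± 0.14 (adjusted p = 8.66e-05) and Isl1 fell by 1.67 ± 0.24 (adjusted p = 4.91e-04). Most glial markers tested were higher at P21, where 22.0% of all genes tested were called higher and 17.4% lower. All 6 oligodendrocyte genes tested were called higher, and their summed intensity went from 4658–6449 to 25033–27559. Of the astrocyte genes, 4 of 6 were called higher and 1 lower (6096–7141 to 9575–11634). Among microglial genes 3 of 4 tested were called higher (1769–2491 to 2673–4225, with Cx3cr1 and Itgam below the filter level on every array). Endothelial markers were called higher for 2 of 5 genes, and pericyte and smooth muscle markers for 1 of 5 tested, with Kcnj8 below the level on every array. Neurons of the inhibitory type gave 1 higher and 1 lower of 3 tested, with Gad2 and Slc6a5 below the level. In these pools fewer cells of a type and less RNA per cell cannot be told apart, and the part that RNA of other cells had in the changes given here was not tested.

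The 78 subunit genes were among the brightest on the array at both ages, and few of them passed the test of an age difference. A mean intensity above the 95th percentile of all probe sets (3835) was reached by 66 of the 78, against 11% of all genes. Of the members, 28 lay above the 99th percentile (6364). At P21, 2 genes were called higher and 5 lower, 8.97% in all, and 71 were not called. Of the 5 lower genes, Cox6b2 passed the filter on low values only through P1 and so had to differ. Over all 10961 genes tested, 39.4% were called, 22.0% higher and 17.4% lower. Among the 1204 genes above the 95th percentile these shares were 9.47% and 16.9%. The change of the 78 genes had a median of -0.06, against 0.05 for all genes, and lay below 0 in 57 of them. After quantile normalization the median was -0.00121 and 39 of the 78 lay below 0, so the direction of the many small changes depends on the scaling. The 95% interval of the change lay within -0.5 to 0.5 (a 1.41-fold difference either way) for 65 genes, or 83.3%, against 38.8% of all genes and 74.9% of those above the 95th percentile. The brightest value of any probe set on any array was 11540, and whether bright signals such as those of the members were compressed was not tested.

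On the deposited scale, more members were lower at P21 in all 4 same-numbered pairs than were higher in all 4. The arrays carry shared replicate numbers at the 2 ages, and 34 of the 78 genes (43.6%) were lower at P21 in all 4 same-numbered pairs, against 29.0% of all genes, while 9 (11.5%) were higher in all 4, against 33.3%. The intensities of the ages did not overlap for 11 genes lower at P21 (14.1%, against 18.2% of all genes) and 2 higher (21.9% of all genes). The median of the members fell between the ages by 0.14, 0.16, 0.08 and 0.14 on the log2 scale for numbers 1 to 4, where the median of all genes moved by 0.01, -0.06, 0.18 and 0.13. No label ties a number to a litter, so the pairing is assumed. With the number as a block, 4 member genes were called higher and 9 lower, against 26.1% and 20.6% of all genes. Centring each array on its median moved the all-gene median by -0.14, and 0 members were then called higher and 9 lower, against 14.4% and 21.7% of all genes. Block and centring together, an alternative chosen after seeing the data, called 1 member higher and 27 lower, against 19.6% and 31.5% of all genes. The median of the subunit genes lay at -0.12 relative to that of all genes as deposited, and at -0.02 after quantile normalization.

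**Figure D1:**
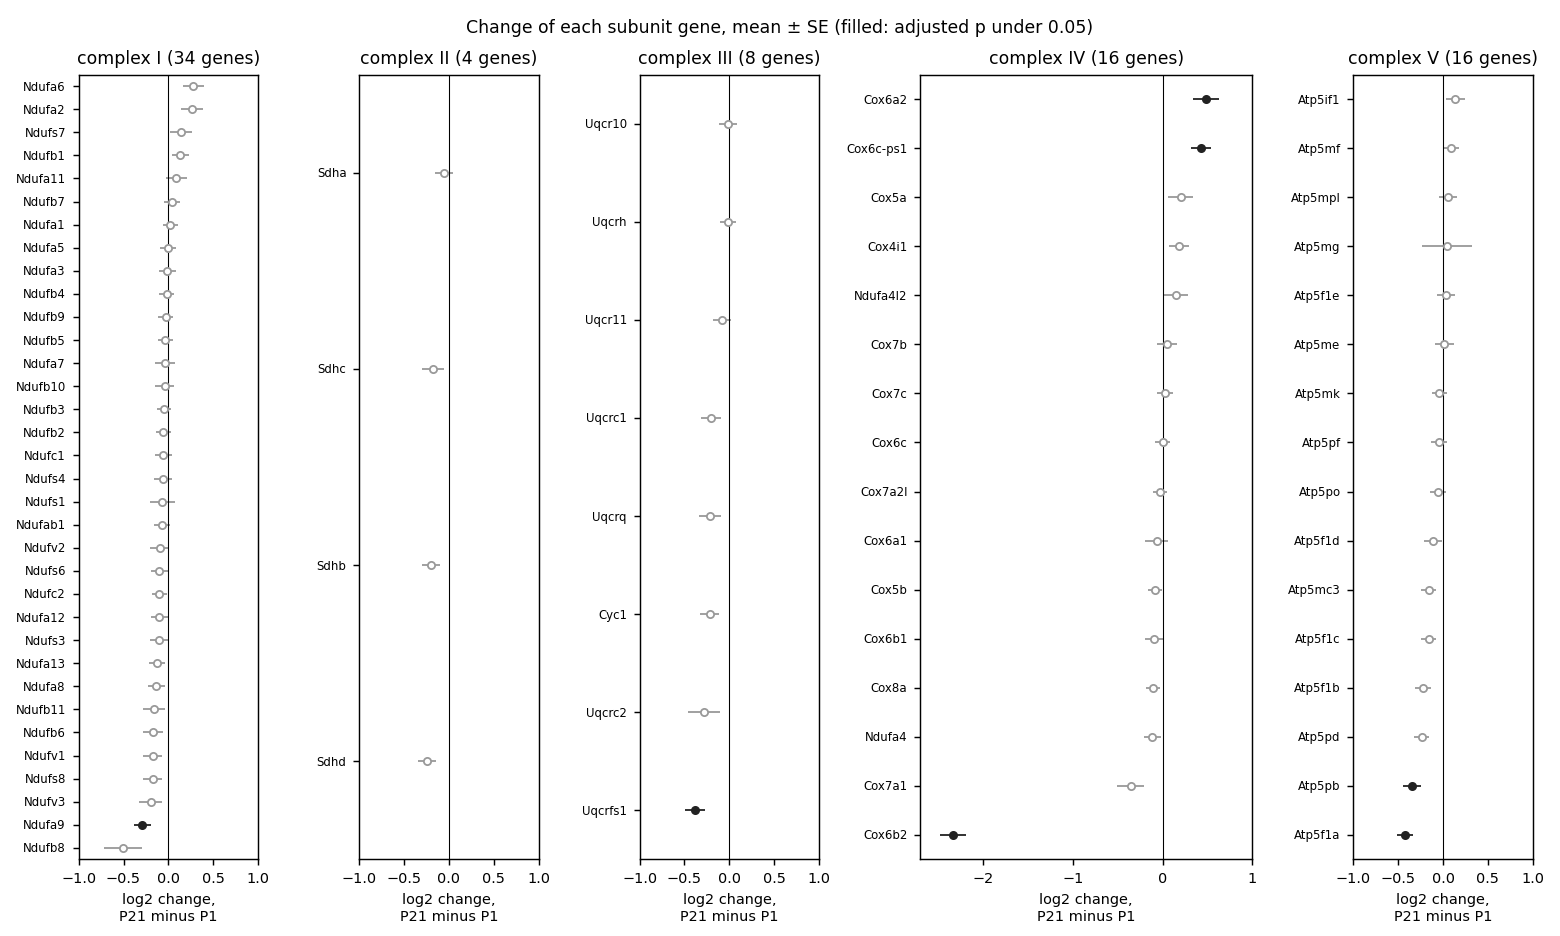
Change of each of the 78 subunit genes, by complex, on the log2 scale (P21 minus P1, mean ± SE, 4 arrays per age), with filled points where limma's adjusted p was under 0.05. Complex IV has a wider x axis than the others, at the same scale, because Cox6b2 lies at -2.33. All complex II and III genes lie below 0 on the deposited scale, and 4 of 4 and 6 of 8 do after quantile normalization.

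Complex I, the NADH dehydrogenase that starts the chain, had 1 of its 34 genes called, and that gene was lower (2.94%, against 17.4% of all genes). Ndufa9, an accessory subunit beside the quinone-binding arm, read 5842, 5991, 6500 and 6347 at P1 and 4577, 4994, 5261 and 5368 at P21. All P21 arrays were below all P1 arrays, and the gene fell by 0.29 ± 0.09 (adjusted p = 0.0297). It was not called when P1 replicate 3 (adjusted p = 0.0850), P1 replicate 4 (0.0807), P21 replicate 1 (0.0754) or P21 replicate 2 (0.0595) was left out. The call was also lost with no filter (0.0658), and when its kept probe sets were averaged (0.136). Over the complex the median change was -0.06 (0.00170 after quantile normalization), with 27 of 34 genes below 0 (16 after it). In all 4 pairs 17 genes (50%) were lower, against 29.0% of all genes, and 4 (11.8%) were higher, against 33.3%.

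None of the subunits of the electron-accepting arm of complex I, whose changes ranged from -0.20 to 0.28, was called. Ndufv1, which binds NADH and the flavin, read 5455 ± 503 at P1 and 4824 ± 435 at P21 and was lower in all 4 pairs (change -0.18 ± 0.11, adjusted p = 0.221, 95% interval -0.41 to 0.06). Ndufs1, the largest iron-sulphur subunit, read 2102 ± 272 and 2010 ± 316 (change -0.07 ± 0.14, interval -0.37 to 0.24). Grouped by place in the complex, a grouping made after the values were seen, the median change was -0.08 over 10 genes of the NADH module, -0.11 over 5 of the quinone module and -0.04 over 19 of the membrane arm. Those of the membrane arm ranged from Ndufb8 at -0.51 to Ndufb1 at 0.13. The differences between these groups were not tested.

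Ndufb8, a membrane-arm subunit often used as a marker of assembled complex I, had the most negative change of the complex but also a wide spread. It read 1992, 1809, 2912 and 2854 at P1 and 1261, 1735, 2237 and 1485 at P21, so that the ages overlapped. The change was -0.51 ± 0.21 (adjusted p = 0.0862, and 0.0323 with the replicate block). Ndufa6 and Ndufa2, accessory subunits of the peripheral arm, had the most positive changes, 0.28 ± 0.12 (adjusted p = 0.0900) and 0.26 ± 0.12 (adjusted p = 0.120), and both were higher in all 4 pairs. With the block these 2 were called higher (0.0488 and 0.0316). These 3 genes, and those named below only for a call under another setting, were chosen after their values were seen.

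Complex II, the succinate dehydrogenase that also serves the citric acid cycle, had none of its 4 genes called, although all 4 changes were below 0 (at an unadjusted p under 0.05, 1 gene, Sdhd, was lower, and limma with the replicate block called that gene). Sdhd, a membrane anchor, read 5576, 6091, 6175 and 6166 at P1 and 4383, 5409, 5458 and 5086 at P21. No P21 array reached the lowest P1 array, and the change was -0.24 ± 0.10 (adjusted p = 0.0808, 0.0408 with the replicate block and 0.0418 with arrays centred). The iron-sulphur subunit Sdhb read 6651 ± 453 and 5805 ± 525 (change -0.20 ± 0.10, adjusted p = 0.147, interval -0.42 to 0.02). The catalytic flavoprotein Sdha read 4337 ± 278 and 4174 ± 391 (change -0.06 ± 0.10, interval -0.28 to 0.16), and the other anchor, Sdhc, had a change of -0.18 ± 0.12. The median of the complex was -0.19.

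Complex III, which passes electrons from ubiquinol to cytochrome c, had 1 of its 8 genes called, and it was lower (12.5%, against 17.4% of all genes). All 8 changes lay below 0, with a median of -0.21 (6 of 8 and -0.14 after quantile normalization). Uqcrfs1, the Rieske iron-sulphur protein, read 4902, 5295, 5590 and 5630 at P1 and 3432, 4304, 4735 and 4016 at P21. The ages did not overlap, and the gene fell by 0.38 ± 0.11 (adjusted p = 0.0245). The call was lost without P1 replicate 3 (0.0642), P1 replicate 4 (0.0682), P21 replicate 1 (0.0559) or P21 replicate 4 (0.0543), and with no filter (0.0524).

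The 4 core and catalytic genes of complex III were lower in all 4 pairs each. Cyc1, the haem protein that hands electrons to cytochrome c, read 5977, 6321, 6454 and 6705 at P1 and 4580, 5551, 5880 and 5939 at P21 without overlap (change -0.22 ± 0.11, adjusted p = 0.132). Uqcrc1, a core protein, read 7940 ± 553 and 6904 ± 780 (change -0.21 ± 0.11, adjusted p = 0.160). Its partner Uqcrc2 had a change of -0.28 ± 0.17 (adjusted p = 0.232, and 0.0443 with the replicate block). The median over these 4 was -0.25. Over the 4 small accessory subunits it was -0.05, with Uqcr10 and Uqcrh within 0.02 of 0 and Uqcrq at -0.21. This grouping was made after the values were seen, and the difference between the groups was not tested.

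**Figure D2:**
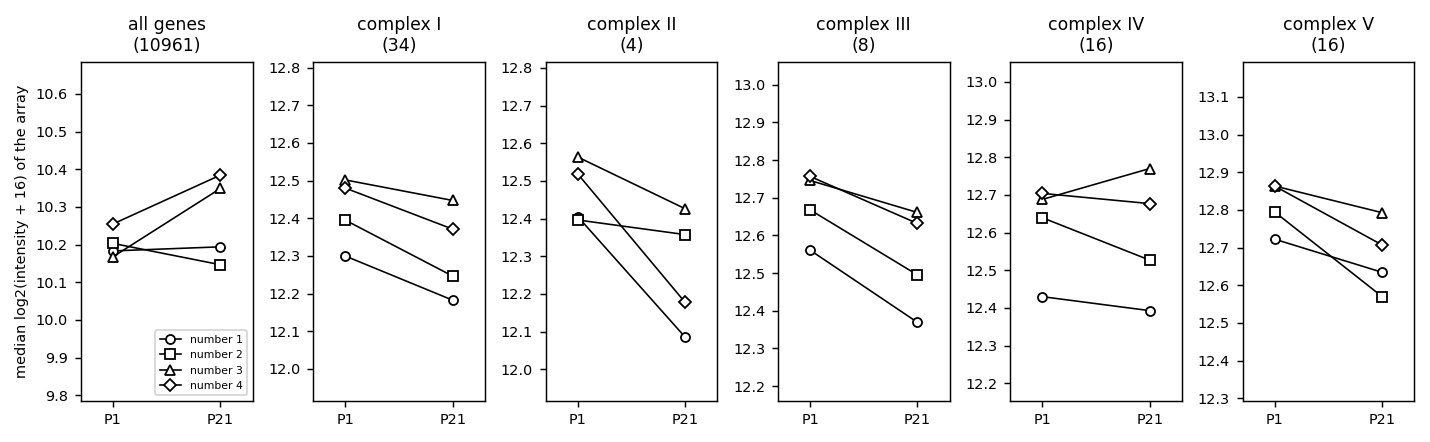
Median log2(intensity + 16) of the subunit genes of each complex and of all genes on every array, by age, with lines joining the arrays of 1 replicate number. Complexes I, II, III and V were lower at P21 for all 4 numbers, while complex IV was higher for number 3 (0.08) and lower for the other three, all on the deposited scale.

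Complex IV, cytochrome c oxidase, held the only member genes called higher. It also held the largest change of any tested member, that of Cox6b2, which had to differ in order to be tested. The genes called were isoform genes or a pseudogene rather than the common subunits. Among the 16 genes tested, 2 were called higher (12.5%) and 1 lower (6.25%), against 22.0% and 17.4% of all genes. The median change was -0.02 (0.04 after quantile normalization), with 8 of 16 below 0. The complex here includes Ndufa4, a subunit now assigned to complex IV in spite of its name, and its relative Ndufa4l2, which is known as a hypoxia-induced gene. Of the common subunits, Cox4i1 read 4098 ± 455 and 4634 ± 367 (change 0.18 ± 0.11, interval -0.07 to 0.43) and was higher in all 4 pairs. Cox5a, the neighbour of Cox4i1 in the complex, read 593 ± 97.1 and 680 ± 75.0 (change 0.20 ± 0.14, interval -0.11 to 0.51), and Cox5b read 8696 ± 178 and 8224 ± 363 (change -0.08 ± 0.08). None of these 3 was called.

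Cox6b2, the form of subunit 6b typical of testis, fell. It read 827, 707, 824 and 1052 at P1 and 122, 176, 158 and 168 at P21. Every P21 array was below the filter level, which lay between an intensity of 221 and 287 across the arrays, so the P21 level is a bound and the gene was at least 2.96-fold lower (fitted change -2.33 ± 0.15, adjusted p = 3.64e-06). It passed the filter only through P1 and so had to differ in order to be tested. Without any 1 P1 array it no longer passed the filter, which needs 4 arrays, and it was called without any 1 P21 array. The common form Cox6b1 read 6914 ± 441 and 6498 ± 602 (change -0.09 ± 0.10, interval -0.31 to 0.13).

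Cox6a2, the heart and skeletal muscle form of subunit 6a, rose within the dim range. It read 218, 208, 239 and 185 at P1 and 244, 290, 303 and 394 at P21, values that do not overlap but lie close to the filter level, which 1 P1 array and 3 P21 arrays exceeded, and the change was 0.49 ± 0.14 (adjusted p = 0.0233). The call was lost when arrays were centred (adjusted p = 0.110) or quantile normalized (0.107) and without P1 replicate 4 (0.0682). Without P1 replicate 3, or P21 replicate 2, 3 or 4, the gene no longer passed the filter. The common form Cox6a1 read 6439 ± 539 and 6188 ± 950 (change -0.07 ± 0.13, interval -0.35 to 0.22). Striated muscle markers had 0 of 4 tested genes called, with a summed intensity of 7240 to 8650 at P1 and 7558 to 8358 at P21, and Mb and Myh2 lay below the filter level on every array. The sum is carried mostly by Myh1, at 5153 ± 160 and 4416 ± 191, and hides the muscle creatine kinase gene Ckm. Ckm read 163, 121, 147 and 574 at P1 and 408, 588, 313 and 486 at P21, with P1 replicate 4 inside the P21 range (change 1.04 ± 0.42, adjusted p = 0.0761, and 0.0492 with the replicate block). Its part in the change of Cox6a2 was not tested.

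Cox6c-ps1, annotated as a pseudogene of Cox6c, read 661, 619, 549 and 511 at P1 and 777, 802, 709 and 886 at P21. The ages did not overlap, and it rose by 0.43 ± 0.11 (adjusted p = 0.0131), a call lost when arrays were centred (0.0708). Cox6c itself read 8521 ± 294 and 8528 ± 477 (change 0.00 ± 0.08, interval -0.19 to 0.19). Probes for a pseudogene can also bind the transcript of its parent gene, so the value of Cox6c-ps1 is uncertain.

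The remaining isoform genes of complex IV gave no call. Cox7a1, the heart and muscle form of subunit 7a, read 640, 786, 712 and 753 at P1 and 463, 469, 722 and 623 at P21, with P21 replicate 3 inside the P1 range. Its change was -0.36 ± 0.15 (adjusted p = 0.0928), and it was called lower with arrays centred (0.0344) or quantile normalized (0.0247). Cox7a2l, which takes part in joining complexes III and IV, read 6724 ± 44.1 and 6576 ± 192 (change -0.03 ± 0.08). Cox4i2, the lung form that is also found in pericytes, read 138 ± 15.5 at P1 and 150 ± 37.2 at P21, below the filter level on every array.

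Cox8b, the heart, muscle and brown fat form of subunit 8, was below the filter level on every array, so no fold is given. It read -13.0, -25.9, -9.42 and -8.05 at P1, background-subtracted values below 0, and 98.2, 178, 217 and 104 at P21. The ages did not overlap, and in the fit without a filter limma gave an adjusted p of 2.71e-05. That fit set every P1 value to 0, which left the P1 arrays no spread, so no conclusion is drawn from this p. The common form Cox8a was among the brightest members, at 9506 ± 313 and 8822 ± 373 (change -0.11 ± 0.08, interval -0.29 to 0.07). Cox7b2, the testis form of subunit 7b, read 231 ± 32.4 and 250 ± 28.1 and did not pass the filter.

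Setting each isoform against its common partner within an array removes a scaling factor shared by both probe sets, but not a scaling that differs with intensity. The log2 ratio of Cox6b2 to Cox6b1 was -2.92, -3.23, -3.11 and -2.78 at P1 and -5.48, -4.96, -5.39 and -5.17 at P21. The means differ by -2.24, given as a description without a test, since Cox6b2 was below the filter level at P21 and had to differ. The ratio of Cox6a2 to Cox6a1 was -4.59, -4.91, -4.72 and -5.06 at P1 and -4.30, -4.25, -4.52 and -4.00 at P21, a difference of 0.55. A two-sided exact permutation test over arrays gave p = 0.0286, the smallest that 4 against 4 arrays allow. Adjustment over 3 pairs gave 0.0429, but these include the Cox6b2 pair, which had to differ, so no call is drawn from it. After quantile normalization that difference was 0.34 (exact permutation p = 0.114). The ratio of Ndufa4l2 to Ndufa4 differed by 0.27 (exact permutation p = 0.171), with overlapping ages. Each ratio moved the same way in 4 of 4 pairs, but an exact sign-flip test over 4 pairs cannot give a p below 0.125. A ratio between probe sets can show only whether the isoforms changed unequally, and gives no relative abundance of the 2 transcripts. For Cox6a2 the result depended on the scaling, and for Ndufa4l2 unequal change was not shown.

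**Figure D3:**
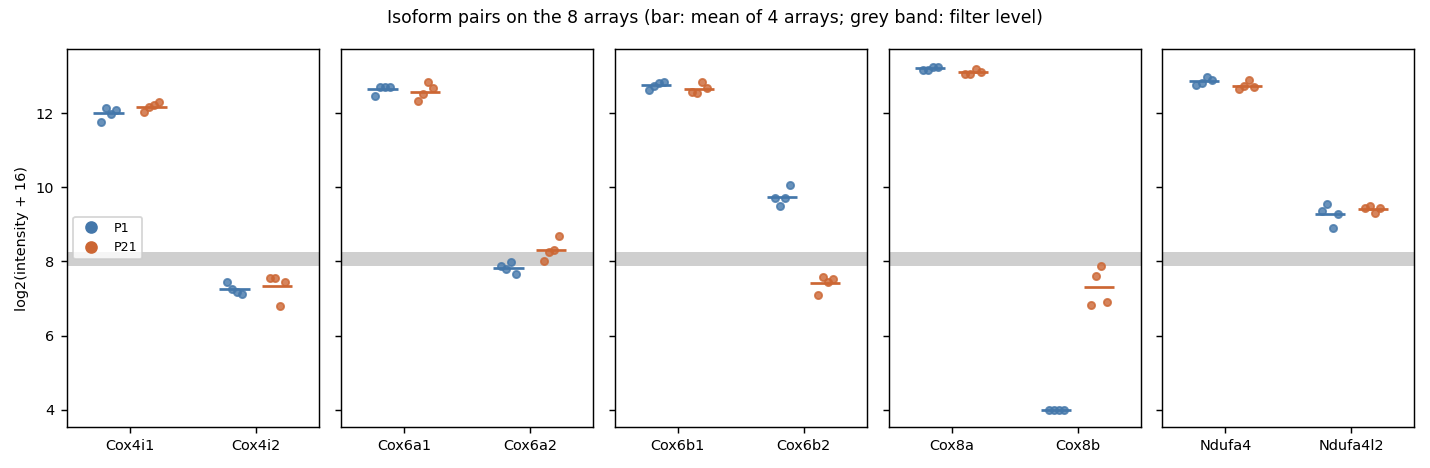
Log2(intensity + 16) of 5 common subunits of complex IV (left in each panel) and of their tissue isoforms (right), with a point for each of the 4 P1 and 4 P21 arrays, a bar at the mean and the filter level as a grey band. Cox6b2 lies above the band at P1 and below it at P21, Cox6a2 lies around it, and the P1 values of Cox8b, negative as deposited, are drawn as an intensity of 0.

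Complex V, the ATP synthase, had 2 of its 16 genes called, both lower (12.5%, against 17.4% of all genes). They belong to the catalytic head and to the stalk that holds it. The median change of the complex was -0.05, and 0.01 after quantile normalization. Atp5f1a, the alpha subunit of the head, read 7215, 7226, 7621 and 7596 at P1 and 5241, 5654, 6083 and 5194 at P21. The ages did not overlap, and the gene fell by 0.42 ± 0.09 (adjusted p = 0.00434), a 1.34-fold decrease. It was called without any 1 of the 8 arrays. Atp5pb, subunit b of the peripheral stalk, read 6686, 6953, 7493 and 7126 at P1 and 4872, 5742, 6175 and 5511 at P21, again without overlap. It fell by 0.34 ± 0.10 (adjusted p = 0.0202), and the call was lost without P1 replicate 3 (0.0603), P1 replicate 4 (0.0531) or P21 replicate 1 (0.0505).

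The other head and stalk genes had smaller changes. Atp5f1b, the catalytic beta subunit, read 9681, 9869.7, 10183 and 10105 at P1 and 8119, 8696, 9289 and 8092 at P21, without overlap (change -0.22 ± 0.08, adjusted p = 0.0655, and 0.0434 with arrays centred). Atp5pd, another stalk subunit, had a change of -0.24 ± 0.09 (adjusted p = 0.0504, 0.0343 with the replicate block and 0.0397 with arrays centred). The ages did not overlap for 6 of the 16 genes (37.5%), all lower at P21, against 18.2% of all genes lower without overlap. By a grouping made after the values were seen, the median change was -0.16 over 5 head genes, -0.15 over 4 stalk genes and 0.03 over 6 genes of the membrane part. Atp5mc3, a gene for the c-ring that turns as protons pass, lay at -0.16 ± 0.08, and the other 5 of the membrane part lay between -0.04 and 0.09.

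Atp5if1, the small protein that inhibits the synthase when the membrane potential is lost, had probe sets that differed. The brightest read 5130 ± 411 and 5654 ± 596 (change 0.14 ± 0.11, adjusted p = 0.346). A dimmer one, whose probes can bind other transcripts too, read 281, 399, 201 and 261 at P1 and 431, 694, 462 and 415 at P21 and was called higher (0.79 ± 0.22, adjusted p = 0.0172), and another was below the filter level on every array. Averaging the kept probe sets gave Atp5if1 a call (0.46, adjusted p = 0.0147). The gene's call thus depends on which probe set stands for it.

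Among the 7 genes with more than 1 tested probe set, the same held for Ndufa7, Atp5po and Ndufa9. Uqcrc2, Ndufv3 and Sdhd were called on neither probe set. Ndufa7, an accessory subunit of complex I, had a change of -0.04 on the brighter and 0.35 ± 0.09 (adjusted p = 0.0130) on the dimmer probe set. Atp5po, the oligomycin sensitivity subunit of the stalk, had -0.06 on the brighter and 0.59 ± 0.19 (adjusted p = 0.0356) on the dimmer one. Uqcrc2 went from -0.28 to 0.39 ± 0.19 (adjusted p = 0.138), Ndufa9 from -0.29 to 0.00, Ndufv3 from -0.20 to 0.06 and Sdhd from -0.24 to -0.13. In every one of these 7 genes the dimmer probe set had the higher change, and none was called in opposite directions. Where each probe set lies along its transcript was not examined, and the part of 3′ bias or of cross-hybridisation in these differences was not tested. Counted by probe set, 5 were called higher and 5 lower of 85, against 20.8% and 17.4% of all probe sets.

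**Figure D4:**
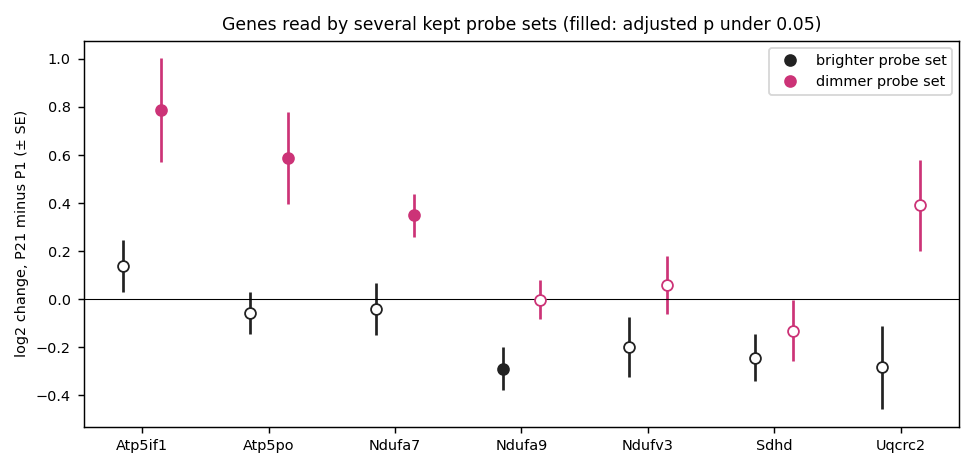
Change of the brighter and the dimmer tested probe set of each of the 7 subunit genes with more than 1 (log2, P21 minus P1, mean ± SE, 4 arrays per age). In all 7 the dimmer probe set lies above the brighter, by the most for Uqcrc2, Atp5if1 and Atp5po.

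Of the 81 genes, 72 were matched by gene identifier to a promoter in RefSeq (build GRCr8). Only the 250 bases before the annotated start were searched. The palindromic motif of nuclear respiratory factor 1 was found on either strand in 10 of the 72 promoters (13.9%), against 1256 of 33469 promoters (3.75%). The letters CCGGAAG, the motif of ETS factors such as GABP, were found on either strand in 19 (26.4%), against 2434 (7.27%). These motifs are rich in G and C, and the promoters of the members had a median GC content of 55.2%, against 51.2% of all promoters. Members with the first motif had a median change of -0.06, as had those without, and members with the second had -0.07, against -0.06 without.

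The following 4 stretches run from 250 bases before the start up to it. They set Cox6b2 and Cox8b, 2 complex IV isoforms picked for their readings by age, beside a common partner and a core subunit. Cox8b was below the filter level on every array. Capitals mark a match to either motif, and CTTCCGG is the second on the other strand. Cox6b2 lies at chr1:78122621-78122870 on the + strand, Cox8a at chr1:213833624-213833873 on the - strand, Cox8b at chr1:205408274-205408523 on the - strand and Sdha at chr1:30764303-30764552 on the + strand.
Cox6b2 promoter: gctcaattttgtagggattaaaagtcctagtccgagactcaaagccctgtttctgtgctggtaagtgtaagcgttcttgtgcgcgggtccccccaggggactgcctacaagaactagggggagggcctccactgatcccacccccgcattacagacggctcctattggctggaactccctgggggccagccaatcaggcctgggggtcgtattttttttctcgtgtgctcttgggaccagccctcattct
Cox8b promoter: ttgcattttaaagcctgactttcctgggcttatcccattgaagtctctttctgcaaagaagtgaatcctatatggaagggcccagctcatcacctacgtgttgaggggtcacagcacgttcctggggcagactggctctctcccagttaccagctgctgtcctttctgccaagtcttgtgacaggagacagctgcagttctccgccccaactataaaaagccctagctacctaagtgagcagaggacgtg
Cox8a promoter: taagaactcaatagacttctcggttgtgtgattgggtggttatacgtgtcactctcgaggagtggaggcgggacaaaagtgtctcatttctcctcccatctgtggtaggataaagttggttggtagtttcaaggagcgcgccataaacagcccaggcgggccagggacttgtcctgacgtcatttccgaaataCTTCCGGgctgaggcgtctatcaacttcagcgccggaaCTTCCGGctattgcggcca
Sdha promoter: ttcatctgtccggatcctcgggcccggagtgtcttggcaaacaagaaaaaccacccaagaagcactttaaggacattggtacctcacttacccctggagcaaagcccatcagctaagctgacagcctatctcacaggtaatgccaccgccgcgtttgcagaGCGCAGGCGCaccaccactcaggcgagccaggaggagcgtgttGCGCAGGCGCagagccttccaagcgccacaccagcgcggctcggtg
Cox8a held 2 matches of the second motif and Sdha 2 of the first. Neither motif is in the stretches of Cox6b2 and Cox8b. The first was found in 10 and the second in 19 of the 72 member promoters, so lacking one is common among the members. A match is a description of the sequence and not of binding.

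Shares called in the other mitochondrial lists are to be read against the 22.0% higher and 17.4% lower of all genes. Of 40 assembly factors tested, 2 were called higher and 2 lower, 10% in all, with a median change of 0.03 (-0.10 with arrays centred). Cox17, the copper chaperone of complex IV, rose from 2169 ± 121 to 4388 ± 410 (change 1.01 ± 0.10, adjusted p = 4.69e-05), and Coa4, another complex IV factor, from 499 ± 131 to 909 ± 279 (0.84 ± 0.25, adjusted p = 0.0263). Cox15, needed for haem A, fell by 0.45 ± 0.12 and the complex III factor Uqcc3 by 0.43 ± 0.15. Coa4 was not called when arrays were centred (0.0522), without a filter (0.0511), or without P1 replicate 1 (0.0563) or P21 replicate 3 (0.0674) or 4 (0.0662). Uqcc3 was not called without a filter (0.0836) and was called in only 1 of the 8 fits that left out an array, the one without P21 replicate 3, with adjusted p up to 0.113 in the others. The intensities of Cox17, Coa4 and Cox15 did not overlap between the ages.

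Of 73 mitochondrial ribosomal proteins, 4 were called higher (5.48%) and 4 lower (5.48%), with a median of -0.03. The leading ones were Mrps16 (0.44 ± 0.12) and Mrpl48 (0.40 ± 0.11), both not called when arrays were centred, and Mrps24 (-0.56 ± 0.16) and Mrps2 (-0.46 ± 0.09), both not called when probe sets were averaged. Omitting P1 replicate 1 (adjusted p = 0.0567), P21 replicate 3 (0.0527) or P21 replicate 4 (0.0546) also ended the call of Mrpl48, and omitting P1 replicate 3 (0.0515), P1 replicate 4 (0.0620), P21 replicate 1 (0.0536) or P21 replicate 2 (0.0608) that of Mrps24. Of 14 genes of the citric acid cycle and pyruvate dehydrogenase, 1 (7.14%) was called higher, Ogdh (0.36 ± 0.09), and 2 (14.3%) lower, Dlst (-0.34 ± 0.10) and the citrate synthase gene Cs (-0.31 ± 0.09). The call of Ogdh was lost when arrays were centred (0.171), and those of Dlst (0.0524) and Cs (0.0540) without a filter. Dlst was called in 2 of the 8 fits that left out an array, those without P1 replicate 2 or P21 replicate 3 (adjusted p up to 0.0695 in the others). The call of Cs ended on omitting P1 replicate 3 (0.0628), P1 replicate 4 (0.0660), P21 replicate 1 (0.0582) or P21 replicate 4 (0.0627).

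A list of 8 genes, called carriers below, held carriers that exchange ATP, ADP and phosphate with the cytosol, porins and mitochondrial creatine kinases. In it 3 genes (37.5%) were called lower and 1 (12.5%), the creatine kinase gene Ckmt2, higher. Slc25a4, an adenine nucleotide translocator, fell from 8899 ± 404 to 6652 ± 660 (change -0.42 ± 0.10, adjusted p = 0.00707), the phosphate carrier Slc25a3 from 7128 ± 134 to 5549 ± 373 (-0.36 ± 0.09, adjusted p = 0.00811) and the porin Vdac2, named here to complete the 3 after its value was seen, by 0.26 ± 0.08. None of these 3 overlapped between the ages. Ckmt2, the mitochondrial creatine kinase of striated muscle, read 190 ± 15.2 at P1, below the filter level on every array, and 405 ± 79.9 at P21, and was at least 1.55-fold higher. It passed the filter only through P21 and so had to differ, and no longer passed it without any 1 P21 array.

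Among 18 regulators of mitochondrial biogenesis and mitochondrial DNA, 4 (22.2%) were called higher and 3 (16.7%) lower, shares close to those of all genes. Esrra, the receptor ERR-alpha that acts on respiratory genes, rose from 211 ± 27.1 to 456 ± 79.4 (change 1.04 ± 0.14, adjusted p = 3.63e-04), and Polg, the mitochondrial DNA polymerase, from 632 ± 6.85 to 1191 ± 107 (0.89 ± 0.09, adjusted p = 6.55e-05). Gabpb1, the partner subunit of the ETS factor GABP, fell by 0.70 ± 0.12 (adjusted p = 0.00113), and the related receptor gene Esrrb fell by 0.52 ± 0.13 (adjusted p = 0.0123). Nrf1 (-0.18 ± 0.17) and Tfam (-0.09 ± 0.19) were not called. No link between regulators and subunit genes was tested.

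**Figure D5:**
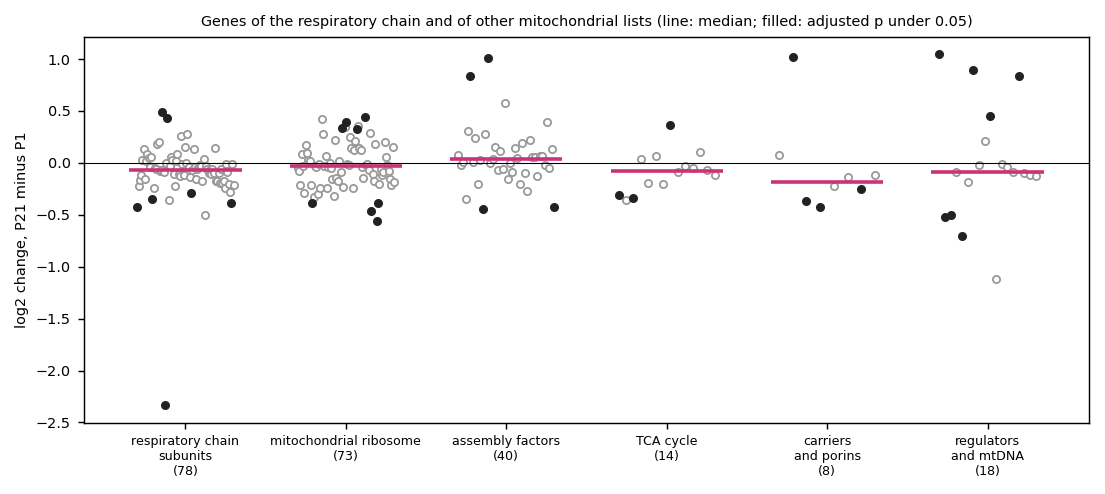
Change (log2, P21 minus P1) of every tested gene of the respiratory chain subunits and the 5 other mitochondrial lists, with filled points for genes called by limma and a bar at each list's median. On the deposited scale the medians lie between -0.18 and 0.03, and calls lie on both sides of 0 in each list.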

How the data were processed

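Probe sets of 8 arrays were compared, 4 per age. The authors deposited 1 linear intensity per probe set and array, some below 0. Their probe summary, background correction and normalization are steps not given in the sources used here. Arrays have no depth, and their number limits the precision. Of 31042 probe sets, 20826 had 1 symbol in the platform annotation, 436 had several and 9780 none, and those with several named no gene. The symbols of 20758 were found in RefSeq's rat table (GRCr8).

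Negative values were taken as 0, and limma 3.58.1 in R 4.3.3 (lmFit, eBayes) tested log2(intensity + 16) without covariates, so folds of dim genes are understated. Kept probe sets exceeded the array's 40th percentile on 4 or more of the 8 arrays (19155 probe sets, 10961 genes). The p-values of this fit were adjusted by Benjamini-Hochberg over the kept probe sets, and those of isoform ratios over 3 pairs, and the kept probe set with the highest mean stood for a gene. Where all arrays of an age lay below that percentile, the fold is a bound against the percentile level. P-values measure the spread between pools of rats. The fit was tested on simulated data.

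The members and lists were chosen with earlier results of these data known. Genes named are the 3 largest called rises and falls per complex, isoform genes, core subunits, Atp5if1, genes with probe sets called in opposite directions, and the 2 largest called rises and falls of each other list, plus others said to be chosen after their values were seen or given as members with several probe sets. Alternatives were other pseudocounts (1 and 64), no filter or the 60th percentile, centred or quantile-normalized arrays, averaged probe sets, each array left out, and the replicate number as a block. Deviations of same-numbered arrays from their age's mean correlated at 0.514, 0.321, 0.558 and 0.15 for numbers 1 to 4, all over 0.1, so equal numbers were treated as pairs. The design text divides litters between ages but ties no number to a litter. Arrays of other numbers correlated at up to 0.366, above the values of numbers 2 and 4, so the pairing is not established. No protein sequences or genome were used here.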

Additional observations from a re-analysis of the deposited data

Results flagged for a closer look

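In 70 sets of 4 values (the intensities of a named subunit gene at 1 age, or the array medians of a complex or list), 3 held an array standing apart from the other three by more of the range than Dixon's critical value, where chance gives about 1 in 20. Cox6a1 read 5630 on P1 replicate 1, below 6694 to 6733 on the other P1 arrays. On P21 replicate 3, Cox5a read 568, below 708 to 725 on the others, and Cox5b read 8764, above 7985 to 8102.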

How the results depend on the processing

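At the 60th percentile filter 1 subunit gene was called higher; complex IV had 1 higher, complex V 4 lower and the carriers 0 higher, and 2 probe sets were higher. With no filter 3 genes and 3 probe sets were lower, with 0 lower in complexes I and III and the citric acid cycle; assembly factors had 1 higher and 1 lower, and the mitochondrial ribosome 2 higher. With arrays centred 0 genes were higher and 9 lower (1 and 9 probe sets); complexes II, IV and V had 1, 2 and 4 lower, complex IV 0 higher, assembly factors 1 higher, the ribosome 0 higher and 7 lower, and the cycle 0 higher. The medians were then -0.20 over all members, -0.20, -0.32, -0.35 and -0.19 for complexes I, II, III and V, -0.10 for assembly factors, -0.22 for the cycle and -0.32 for carriers. Quantile normalization gave 1 higher in complex I, 1 higher and 2 lower in complex IV, 4 assembly factors higher, and 0.34 for the ratio of Cox6a2 to Cox6a1. Averaging probe sets gave 0 lower in complex I, 1 higher in complex V and 5 assembly factors higher. The replicate block, which assumes that equal numbers pair the arrays, gave 4 genes higher and 9 lower (9 probe sets lower). Complexes I, II and III then had 2, 1 and 2 lower, and complex I 2 higher. Assembly factors had 5 higher and 4 lower, and the ribosome 7 higher and 10 lower. The block with centred arrays, an alternative chosen after seeing the data, gave 1 higher and 27 lower (19.6% and 31.5% of all genes) with a median of -0.20.

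Leaving out 1 array at a time gave 1 to 3 genes higher and 1 to 9 lower, and 3 to 6 probe sets higher and 1 to 9 lower. By complex the ranges were 0 to 1 higher and 0 to 2 lower in I, 0 to 1 lower in III, 1 to 2 higher and 0 to 2 lower in IV, and 1 to 4 lower in V. Assembly factors had 1 to 5 higher and 1 to 2 lower, the ribosome 1 to 5 and 1 to 6, the cycle 0 to 2 lower, and carriers 0 to 1 higher with a median of -0.27 to -0.16. By array, 1 gene was lower without P1 replicate 3 or P1 replicate 4, 2 without P21 replicate 1 and 9 without P21 replicate 3. No called gene or tested ratio changed direction. Medians near 0 crossed it: with quantile normalization those of complexes I, IV and V were 0.00170, 0.04 and 0.01, and with no filter that of complex IV was 0.02. Leaving out P1 replicate 4 or P21 replicate 1 gave 0.01 and 0.03 for complex IV, and leaving out P21 replicate 3 gave -0.02 for assembly factors. The ribosome median was up to 0.02 without P1 replicate 4 or P21 replicate 1 or 2. Cox6a1 and Cox7a2l, neither called, were 0.01 and 0.04 after quantile normalization, and Cox6a1 0.02 without P21 replicate 1. The cause of these differences was not tested, except that without a P1 array Cox6b2 fails the filter. Small changes thus depend on scaling and filter, and values near the filter level are close to background.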
